A study of Mus musculus with 6 samples.

Results

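The imprinted loci H19, Meg3 and Gnas were examined in adipose tissue DNA of mice whose mothers had or had not been restricted in chromium. Their probes were taken by position alone, as all promoter probes of the array inside 3 windows given in mm9 coordinates, namely chr7:149761000-149771000 for H19 and its control region, chr12:110764000-110782000 for Meg3 with the intergenic stretch beside it, and chr2:174110000-174157000 for the Gnas complex. This gave 240 of the 174638 promoter probes, of which 41 lay in the H19 window, 8 in the Meg3 window and 191 in the Gnas window. The LC group was the offspring of C57BL/6J dams kept on a low chromium diet, and the CC group was the offspring of dams kept on the control diet. All offspring studied were females that ate the control diet after weaning, and adipose tissue was taken at 32 weeks of age from 3 LC mice and 3 CC mice, with 1 mouse on each array. Methylated DNA was pulled down with an antibody to 5-methylcytidine (MeDIP), and MeDIP DNA in Cy5 was hybridized together with input DNA in Cy3, without a dye swap. The value of a probe is log2 of the MeDIP over the input signal after the median of the array was subtracted, called the log ratio here, so that 0 is the median probe of the array. Whole fat tissue was used, and a different share of cell types and a different methylation per cell cannot be told apart in it.

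Imprinted genes are read from the maternal or the paternal copy only, and the choice is held by control regions at which 1 parental copy carries DNA methylation. At the H19 locus the paternal control region is methylated, which silences the long noncoding RNA H19 on that copy and lets the growth factor gene Igf2 be read there. Meg3 is a long noncoding RNA read from the maternal copy of the Dlk1-Dio3 domain, whose intergenic control region is methylated on the paternal copy. Gnas encodes the stimulatory G protein alpha subunit, which couples hormone receptors such as the beta-adrenergic receptors of fat cells to adenylyl cyclase, and the same locus holds further promoters, among them those of Nesp and Gnasxl, with opposite parental methylation. MeDIP reads the mean over both copies, so the log ratio does not separate them.

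The promoter sequences below show how unlike in CpG density, on which pull-down by a methylation antibody depends, the start sites of these loci are. They come from RefSeq on GRCm38.p6, hold 250 bases before and 50 after each start, and are written with every CG in capitals. Meg3 and Gnas had entries, with 2 and 4 windows. For Meg3 the window chr12:109540746-109541045 is shown, and for Gnas the most upstream window, chr2:174284070-174284369, and 2 that lie 43.4 and 45.7 kb further downstream, chr2:174327518-174327817 and chr2:174329756-174330055, all on the plus strand.
Meg3 promoter: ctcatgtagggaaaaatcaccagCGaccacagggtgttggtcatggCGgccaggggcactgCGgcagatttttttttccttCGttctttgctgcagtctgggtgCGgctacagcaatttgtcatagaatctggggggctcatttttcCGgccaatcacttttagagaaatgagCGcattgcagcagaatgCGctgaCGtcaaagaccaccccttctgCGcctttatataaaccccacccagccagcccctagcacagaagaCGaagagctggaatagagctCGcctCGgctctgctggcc
Gnas upstream promoter: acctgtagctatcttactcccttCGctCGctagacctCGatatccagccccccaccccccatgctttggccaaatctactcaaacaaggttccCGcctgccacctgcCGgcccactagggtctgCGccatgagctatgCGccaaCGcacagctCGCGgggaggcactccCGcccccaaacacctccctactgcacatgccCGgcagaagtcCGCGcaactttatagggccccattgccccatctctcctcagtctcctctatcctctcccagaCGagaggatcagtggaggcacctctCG
Gnas middle promoter: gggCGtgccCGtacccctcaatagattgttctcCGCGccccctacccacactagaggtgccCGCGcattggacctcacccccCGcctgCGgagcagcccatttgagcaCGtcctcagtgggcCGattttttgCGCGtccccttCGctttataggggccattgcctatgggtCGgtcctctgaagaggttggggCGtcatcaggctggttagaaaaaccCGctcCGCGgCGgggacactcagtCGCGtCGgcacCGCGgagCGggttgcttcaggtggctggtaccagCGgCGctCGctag
Gnas downstream promoter: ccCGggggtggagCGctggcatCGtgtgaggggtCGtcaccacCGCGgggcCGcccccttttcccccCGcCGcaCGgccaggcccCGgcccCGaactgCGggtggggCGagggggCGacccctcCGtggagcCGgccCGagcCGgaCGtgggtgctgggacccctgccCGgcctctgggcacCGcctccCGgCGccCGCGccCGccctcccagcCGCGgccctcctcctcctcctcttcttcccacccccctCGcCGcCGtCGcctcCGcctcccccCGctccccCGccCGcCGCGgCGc
The Meg3 window shown held 13 CG and a G+C content of 53.7%, and 37.9% of the 32851 promoter windows of the table held at least as many CG. The other Meg3 window, chr12:109545148-109545447, held only 1 CG, a number reached by 94.6% of all promoter windows. The upstream Gnas window held 16 CG, a number reached by 33.0% of all promoter windows. The middle Gnas window held 28 CG, reached by 14.2%, and the downstream Gnas window held 40 CG at a G+C content of 81.7%, reached by 3.91%. The median promoter window held 7 CG. These sequences are on another genome build than the array, and the probes were not placed on them.

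At none of the loci did the mean over a run of probes differ between LC and CC mice beyond the adjusted threshold of 0.05. Probes that started within 500 bp of each other were joined into regions of at least 3 probes, which put every one of the 240 probes into 8 regions, 2 at H19, 1 at Meg3 and 5 at Gnas, numbered along the chromosome. With limma over all 22588 regions of the array and Benjamini-Hochberg adjustment, 0 of the 8 regions were called, beside 8.81% of all regions called lower and 10.2% called higher in LC. At an unadjusted p under 0.05 there were 1 region lower and 1 region higher, both at Gnas. Single probes passed at Gnas only, where 8 were called lower and 2 higher in LC by limma over 174276 probes. Among all probes 4.29% were called lower and 1.75% higher, and the 8 and 2 of the 240 members come to 3.3% and 0.83%. Without CC1, CC2 or CC3, and with the slide as a block, 0 member probes were called, and without LC2 there were 16 lower and 6 higher. Slides were inferred from the scan time, and LC3 and CC3 were each alone on theirs. The slide block therefore compares LC1 and LC2 with CC1 and CC2 only and is a weak check. After another background correction (normexp) the split was 17 lower and 45 higher, with 7 of the higher probes at H19 and 2 at Meg3. At Gnas normexp gave 17 lower and 36 higher probes, so the balance of directions there turned with the background correction. The shares of all probes called with normexp are not given here, so whether the turn is particular to Gnas cannot be told.

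**Figure D1:**
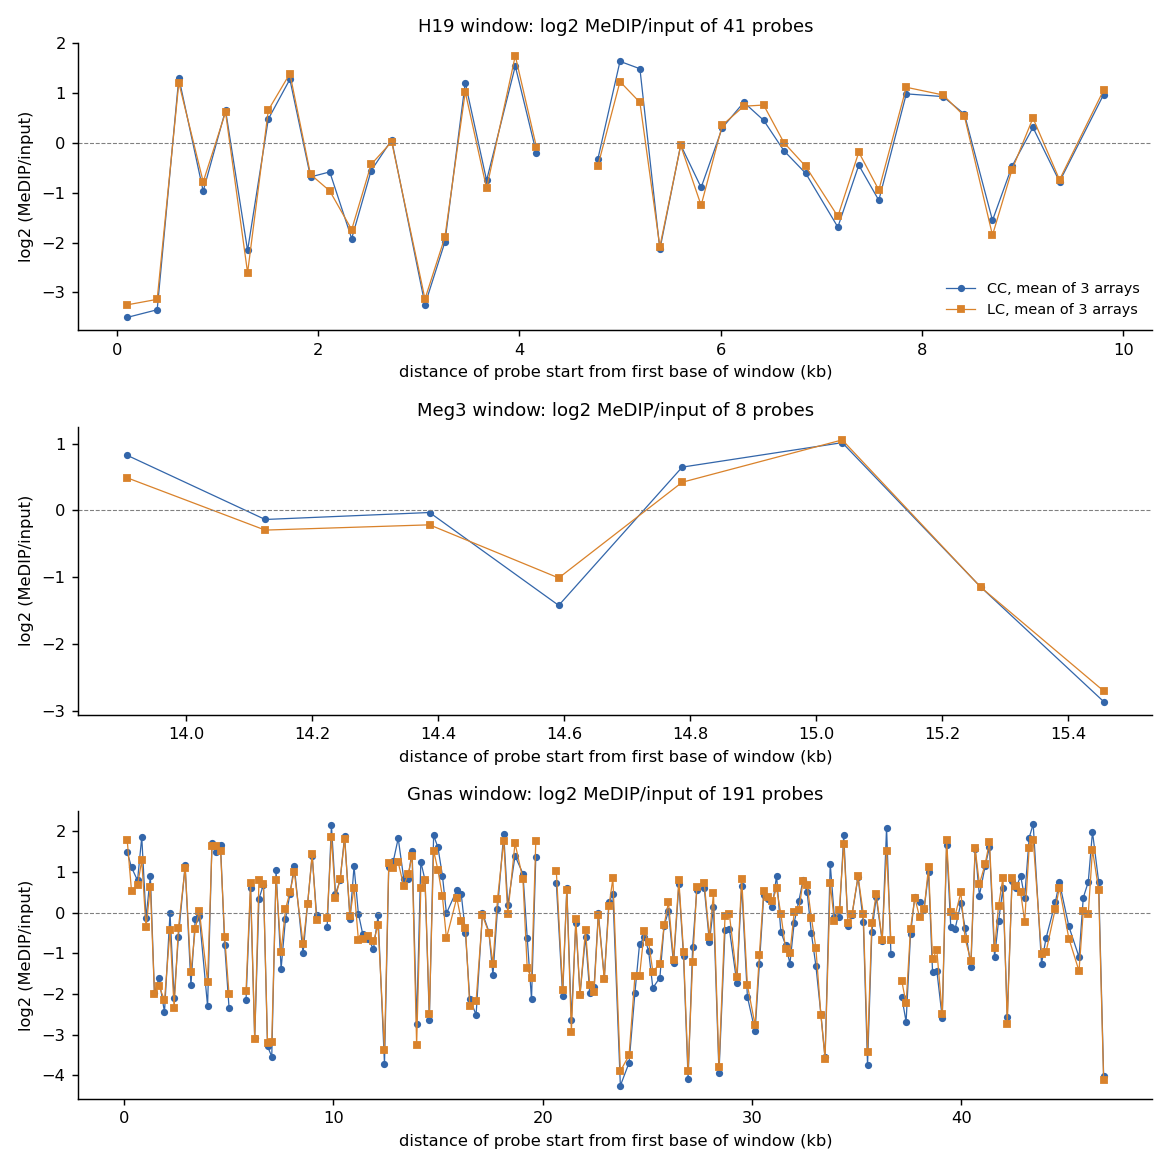
Mean log2(MeDIP/input) of each probe over the 3 CC arrays (blue circles) and the 3 LC arrays (orange squares), against the distance of the probe from the first base of its window in kb, for H19, Meg3 and Gnas; lines join probes of 1 region. Neighboring probes differ by several log2 units while the 2 groups nearly overlie each other, and the Meg3 probes all lie between 13.9 and 15.5 kb.

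Readings changed far more from probe to probe than from mouse to mouse. In CC mice the log ratio ran from -3.50 to 1.64 at H19, from -2.86 to 1.01 at Meg3 and from -4.25 to 2.18 at Gnas. Adjacent probes of a region differed by a median of 1.26 at H19, 1.39 at Meg3 and 1.18 at Gnas on the log2 scale. The median SD between the 3 CC mice at a probe was 0.089 at H19, 0.11 at Meg3 and 0.12 at Gnas. Each probe hybridizes with an efficiency of its own and is pulled down with the CpG sites near it, so the readings of different probes are no ranking of their methylation. Set against probes of the same length only, the median member probe of H19 stood at percentile 43.6 of all probes in CC mice, that of Meg3 at 30.1 and that of Gnas at 47.1. Of the 240 members 49 had a MeDIP signal that was not well above background in any mouse, 44 of them at Gnas, 5 at H19 and 0 at Meg3. These 49 are 20.4% of the members, against 22.7% of all probes, and their log ratios are upper bounds. For such probes the readings are given below without a difference between groups.

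The H19 window was covered from end to end by 2 regions. Region 1, chr7:149761104-149765213, held 19 probes and read -0.72, -0.64 and -0.67 in LC1 to LC3 and -0.69, -0.71 and -0.71 in CC1 to CC3. The LC values enclosed the CC values, and the means of -0.68 ± 0.041 and -0.70 ± 0.0077 (SD, n = 3) differed by 0.026 with an SE of 0.045 (limma adjusted p = 0.700). The unadjusted 95% interval of the difference ran from -0.076 to 0.13. Region 2, chr7:149765780-149770847, held 22 probes and its values were closer than in any other member region, from -0.092 to -0.087 in LC and from -0.081 to -0.078 in CC mice. All LC values lay below all CC values there, but the difference was only -0.0091, with an SE of 0.043 from the spread shared over all regions and a limma adjusted p of 0.892. Such an order of the groups was seen in 20.5% of all regions of the array, and the reverse order in 24.1%. Under the percentile scale for probes of equal length, the median probe of region 1 stood at 34.4 and that of region 2 at 55.6 in CC mice.

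The highest probes of the H19 regions had differences of opposite sign. The highest probe of region 1, at 149764959, read 1.79, 1.72 and 1.75 in LC and 1.60, 1.53 and 1.50 in CC mice (LC minus CC 0.21, limma adjusted p = 0.152). The highest probe of region 2 lay about 1 kb further on, at 149765999, and read 0.98, 1.38 and 1.33 in LC and 1.71, 1.60 and 1.61 in CC mice (LC minus CC -0.41, limma adjusted p = 0.0753). Neither passed the threshold, although the groups did not overlap at either. At the lower end, the probe at 149761104 read from -3.38 to -3.17 in LC and from -3.53 to -3.46 in CC mice, and the probe at 149766395 read from -2.26 to -1.77 in LC and from -2.30 to -2.00 in CC mice. Both had a MeDIP signal that stayed near background in every mouse.

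Of the 41 H19 probes, 7 had all LC values below all CC values and 10 had all above. This is 17.1% and 24.4%, beside 17.7% and 20.7% of all probes of the array. The probe at 149763116 read -1.08, -0.88 and -0.93 in LC and -0.64, -0.49 and -0.62 in CC mice, a difference of -0.38 that came closest to the threshold among the H19 probes named here (limma adjusted p = 0.0556). In the other direction the probe at 149767426 read 0.73, 0.83 and 0.72 in LC and 0.46, 0.53 and 0.37 in CC mice (0.31, limma adjusted p = 0.0772). The probe at 149768371 read -0.04, -0.31 and -0.21 in LC against -0.42, -0.56 and -0.36 in CC mice (0.26, limma adjusted p = 0.144). A further probe with separate groups, at 149762300, read from -2.90 to -2.40 in LC and from -2.18 to -2.14 in CC mice with MeDIP signals not well above background. When the loci were divided into stretches of 1 kb in place of long regions, a choice made after the data were seen, 1 of the 10 H19 stretches was called. This stretch, chr7:149766197-149766850 with 4 probes, read -0.62, -0.72 and -0.59 in LC and -0.31, -0.47 and -0.40 in CC mice (-0.25, limma adjusted p = 0.0358), beside 10.3% of all such stretches called lower. Its probe at 149766197 alone differed by -0.68, with overlapping groups and no call (limma adjusted p = 0.0746). The mean also takes in the probe at 149766395, whose MeDIP signal was not well above background in any mouse.

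The Meg3 window had probes in a single stretch of 1.6 kb, chr12:110777906-110779505, and none in the first 13.9 kb, so that its intergenic part was not measured. Its region of 8 probes read -0.52, -0.28 and -0.49 in LC and -0.36, -0.36 and -0.45 in CC mice. The CC values lay inside the range of the LC values, which was the widest of the 8 regions (SD 0.13, n = 3, against 0.050 in CC). The difference was -0.037 with an SE of 0.067 (limma adjusted p = 0.705), and its unadjusted 95% interval ran from -0.19 to 0.11. With 3 mice a group, this interval covers the spread between mice under the main processing only. Without the LC2 mouse the difference was -0.11, and without LC1 it was 0.0072, so its sign rested on single mice.

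At Meg3 1 of the 8 probes separated the groups. Over the array 17.7% of probes had all LC values below all CC values and 20.7% had all above. The probe at 110778591 read -0.97, -1.17 and -0.90 in LC and -1.42, -1.44 and -1.42 in CC mice, 0.41 higher in LC and just short of the threshold (SE 0.10, limma adjusted p = 0.0513). It passed without LC2 (0.49, adjusted p = 0.0367), with normexp (0.32, adjusted p = 0.0317), and where dim input spots were left out (0.41, adjusted p = 0.0290). Under every other setting tried it did not pass, with adjusted p from 0.0524 to 0.282 and the same sign throughout. The difference was 0.35 with the slide as a block (adjusted p = 0.164), 0.30 with quantile normalization (0.114), 0.29 with the trend on probe length removed (0.133) and 0.11 in the authors' processed values (0.282). The highest probe, at 110779041, read 0.99, 1.15 and 1.03 in LC and 0.99, 1.08 and 0.98 in CC mice, and the groups overlapped. The lowest, at 110779456, read -2.86, -2.58 and -2.67 in LC against -3.09, -2.70 and -2.80 in CC mice and overlapped too. All 8 had MeDIP and input signals well above background on every array.

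**Figure D2:**
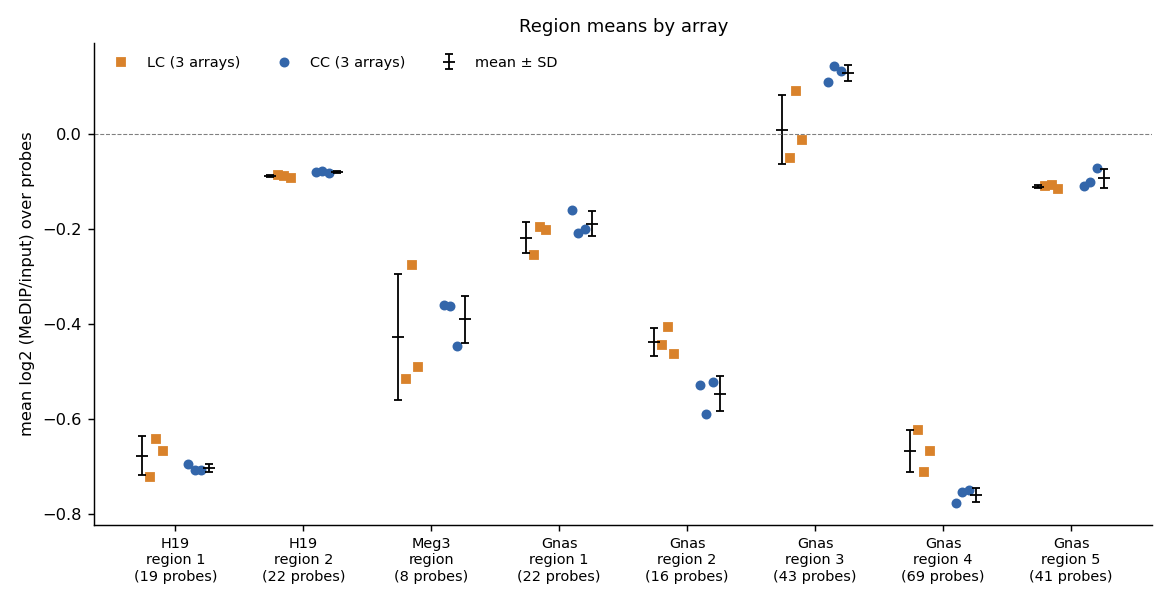
Mean log2(MeDIP/input) over the probes of each of the 8 regions, 1 point for each LC array (orange squares) and CC array (blue circles), with the group mean ± SD (n = 3) in black. The groups are apart in Gnas regions 2, 3 and 4 and, by 0.0091 on average, in H19 region 2, and none of the 8 differences passed the adjusted threshold.

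The Gnas complex was tiled almost without a gap over 47 kb. The differences of its 5 regions had both signs, none passed the adjusted threshold, and 3 regions separated the groups. Of all regions of the array, 20.5% had all LC values below all CC values and 24.1% had all above. Region 3, chr2:174119702-174129729 with 43 probes, read -0.05, 0.09 and -0.01 in LC and 0.11, 0.14 and 0.13 in CC mice, so that every LC value lay below every CC value. The difference was -0.12 with an SE of 0.051 (limma adjusted p = 0.112). It was -0.16, -0.053 and -0.15 between the LC and CC mice of the same scan day. The shared sign of the 3 days follows from the separation of the groups and adds nothing to it. Without LC2, the highest LC value, the difference was -0.16 and passed (adjusted p = 0.0497).

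The regions on both sides of it had differences of the other sign. Region 2, chr2:174115825-174119241 with 16 probes, read -0.45, -0.41 and -0.46 in LC and -0.53, -0.59 and -0.52 in CC mice. All LC values were above all CC values, with a difference of 0.11 and an SE of 0.046 (limma adjusted p = 0.114). Region 4, chr2:174130654-174146696, was the longest with 69 probes and read -0.62, -0.71 and -0.67 in LC and -0.78, -0.75 and -0.75 in CC mice (0.093, SE 0.046, limma adjusted p = 0.165). The MeDIP signal was not well above background in any mouse at 31.25% of the probes in region 2 and 31.9% in region 4. In region 3 it was 9.30%, beside 22.7% of all probes, and the region means average these upper bounds in. Within the scan days the differences were 0.083, 0.18 and 0.058 in region 2 and 0.15, 0.043 and 0.082 in region 4. With the scan day as a block the limma adjusted p was 0.162 in region 2, 0.127 in region 3 and 0.206 in region 4. With the slide as a block, which leaves LC3 and CC3 out of the comparison, it was 0.290, 0.381 and 0.423. With normexp regions 2 and 4 passed, region 2 at 0.14 (adjusted p = 0.0145) and region 4 at 0.13 (adjusted p = 0.0281), as did H19 region 1 at 0.17 (adjusted p = 0.0129). How many of all regions passed with normexp is not given here, so these calls are no result particular to the loci.

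Gnas regions 1 and 5 lie at the ends of the window and showed overlapping groups. Region 1, chr2:174110146-174115069 with 22 probes, read -0.25, -0.20 and -0.20 in LC and -0.16, -0.21 and -0.20 in CC mice (-0.029, SE 0.045, limma adjusted p = 0.662). Region 5, chr2:174147160-174156860 with 41 probes, read -0.11 in each LC mouse and -0.11, -0.10 and -0.07 in CC mice (-0.017, SE 0.043, limma adjusted p = 0.794). In order of their mean reading in CC mice the Gnas regions ran from region 4 (-0.76) over region 2 (-0.55), region 1 (-0.19) and region 5 (-0.093) to region 3 (0.13). Each SD between CC mice was at most 0.037, which is smaller than any step of this order, but the regions hold different probes and the order is one of readings.

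Of the 10 Gnas probes that passed the threshold, all 8 lower ones were 45 bases long, the shortest on the array, and both higher ones were longer. The lower probes fell in 4 of the 5 regions, with 4 in region 3, 2 in region 5 and 1 each in regions 1 and 4. The largest difference among those with a measured MeDIP signal was at 174156073 in region 5, where the readings were -0.27, 0.04 and 0.12 in LC and 0.80, 0.69 and 0.77 in CC mice (-0.79, SE 0.12, limma adjusted p = 0.0314). In region 3 the probe at 174124178 read 0.48, 0.72 and 0.59 in LC and 1.28, 1.17 and 1.29 in CC mice (-0.65, limma adjusted p = 0.0314). Also in region 3, the probe at 174126110 read -0.51, -0.09 and 0.02 in LC and 0.50, 0.57 and 0.30 in CC mice (-0.65, limma adjusted p = 0.0463). The probe at 174121194 read -0.60, -0.50 and -0.89 in LC and -0.03, 0.03 and -0.07 in CC mice (-0.64, limma adjusted p = 0.0355). The other lower probes with a measured MeDIP signal were at 174110843 in region 1 (-0.57), 174123978 in region 3 (-0.51) and 174153035 in region 5 (-0.60), with limma adjusted p of 0.0374, 0.0481 and 0.0456. The eighth, at 174134630 in region 4, read from -1.73 to -1.42 in LC and from -0.95 to -0.42 in CC mice, with a MeDIP signal that stayed near background in every mouse.

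Of the higher probes, the one at 174143056 in region 4 read -0.76, -0.94 and -0.88 in LC and -1.44, -1.27 and -1.19 in CC mice (0.44, SE 0.11, limma adjusted p = 0.0489). The other, at 174147369 in region 5, read from -2.29 to -2.19 in LC and from -2.75 to -2.56 in CC mice, and its MeDIP signal was not well above background on any array. Separate groups without a call were seen at 174129262 in region 3, which read -1.74, -1.48 and -0.87 in LC and -0.70, -0.82 and -0.32 in CC mice (-0.75, SE 0.22, limma adjusted p = 0.0693). At 174113988, 174129468 and 174148837 the groups were separate too, with all LC readings above all CC readings, and the MeDIP signals were not well above background.

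The highest reading of each Gnas region came from probes at 174114198, 174118986, 174119906, 174146435 and 174153442, with CC means of 1.72 ± 0.039, 1.40 ± 0.35, 2.15 ± 0.17, 2.09 ± 0.084 and 2.18 ± 0.093 (SD, n = 3). The LC means at these probes were 1.63 ± 0.074, 1.44 ± 0.23, 1.86 ± 0.40, 1.52 ± 0.27 and 1.80 ± 0.11. None of the 5 passed, and the closest was 174146435, which read 1.21, 1.68 and 1.68 in LC against 2.04, 2.19 and 2.04 in CC mice (-0.56, limma adjusted p = 0.0523). The lowest readings of regions 2 to 5, at 174117055, 174122442, 174133714 and 174156808, lay between -4.36 and -3.04 in all mice with MeDIP signals not well above background. In region 1 the lowest probe, 174111929, was measured in both channels and read -2.12, -2.20 and -2.16 in LC against -2.60, -2.32 and -2.43 in CC mice (0.29, limma adjusted p = 0.100).

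**Figure D3:**
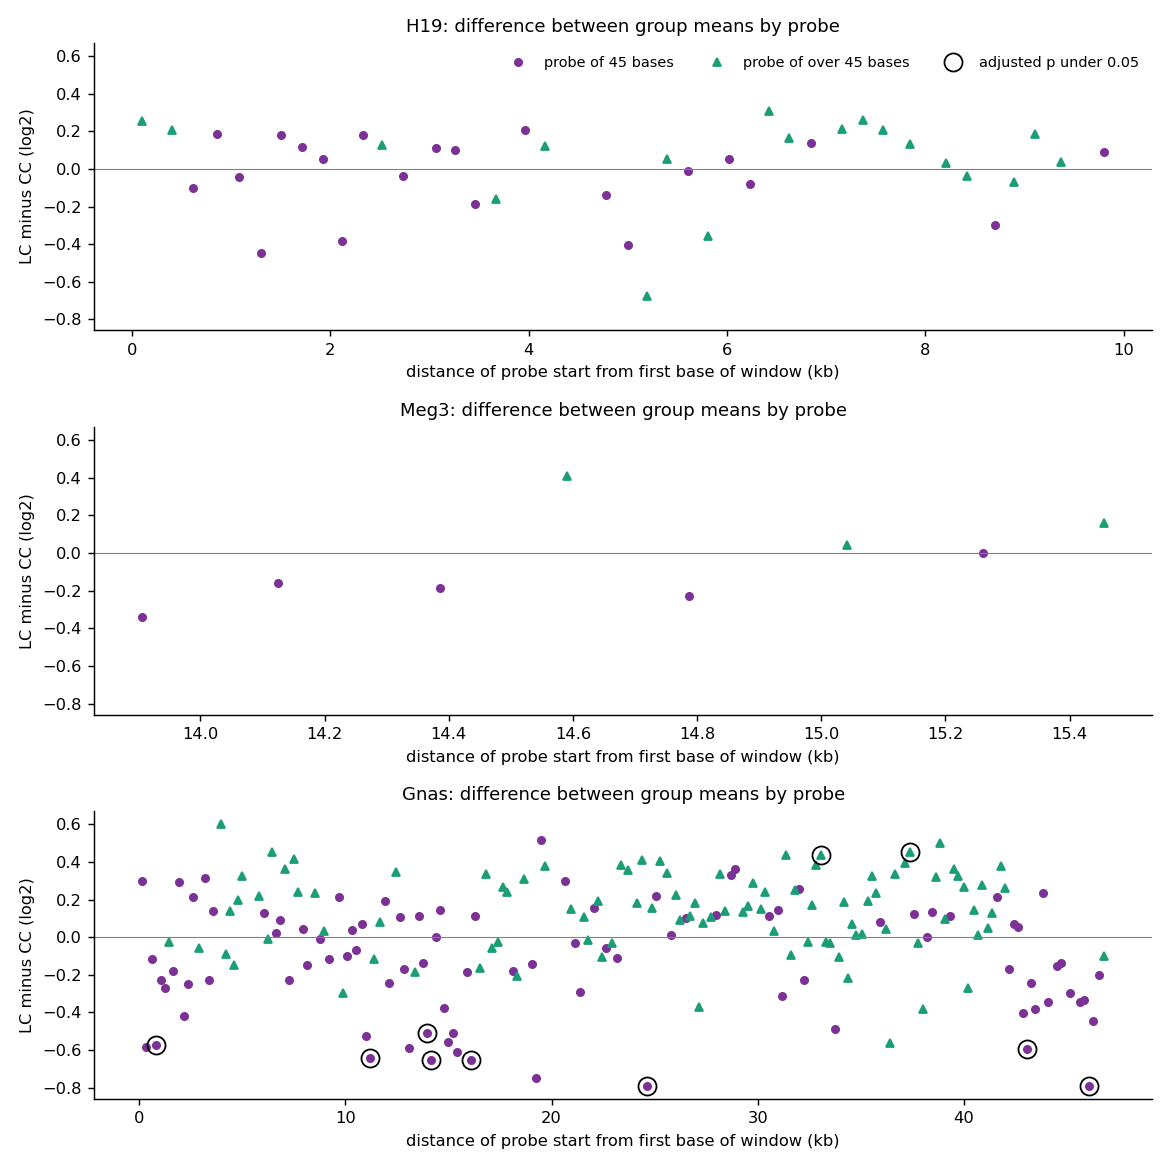
Difference in log2(MeDIP/input) between the LC and CC means (n = 3 each) at every probe of the 3 loci, against the distance from the first base of the window in kb; purple circles are probes of 45 bases, green triangles longer probes, and rings mark an adjusted p under 0.05. The 8 ringed probes below 0 are all circles and the 2 above 0 are triangles, and most circles of Gnas lie below the triangles around them.

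Probe length moved with the difference at these loci as it did over the whole array. Of the 240 members 120 were 45 bases long and 120 were longer, and 49.9% of all probes were 45 bases long. The median difference of the members was -0.10 for probes of 45 bases and 0.15 for longer ones, beside -0.095 and 0.18 over all probes. At Gnas it was -0.12 and 0.15, and at Meg3 -0.18 and 0.16. H19 differed in that the median was 0.020 for its 22 short probes and 0.13 for its 19 longer ones. Among the 45-base members 33 had all LC values below all CC values and 20 had all above, where the shares over all 45-base probes were 30.8% and 8.98%. For the longer members the numbers were 5 and 39, against 4.68% and 32.3% of all longer probes. In region 3 of Gnas 67.4% of the probes were 45 bases long, in region 2 it was 8 of the 16 probes, and in region 4 29.0%. After a trend on probe length was removed, the differences were -0.069 in region 3, 0.090 in region 2 and 0.0033 in region 4. The part of probe length in these differences was not tested further.

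In stretches of 1 kb, chosen after the data were seen, 6 of the 45 Gnas stretches were called lower and 2 higher, where 10.3% and 8.30% of all stretches of the array were. The lower ones formed a group of 3 neighbors in region 3, from 174123098 to 174125942, and a group of 3 in region 5 between 174153035 and 174156860. The clearest was chr2:174125211-174125942 with 3 probes, at 0.13, 0.01 and -0.01 in LC and 0.54, 0.44 and 0.46 in CC mice (-0.44, SE 0.065, limma adjusted p = 0.0118). In region 5 the stretch chr2:174156073-174156860 read -0.70, -0.44 and -0.39 in LC and -0.14, -0.14 and -0.11 in CC mice (-0.38, limma adjusted p = 0.0207). The higher ones were chr2:174133166-174133773 (0.21, limma adjusted p = 0.0357) and chr2:174138163-174138965 (0.29, limma adjusted p = 0.0292), both in region 4. The stretches that start at 174133166 and 174156073 each hold a probe whose MeDIP signal was not well above background in any mouse. Their means average such upper bounds in. Over the 3 loci 7 stretches were lower and 2 higher, which became 0 and 0 without CC1 or CC3, 1 and 0 without CC2, and 4 higher without LC2. Of the 24 probes in the lower Gnas stretches 22 were 45 bases long, and of the 7 in the higher ones 3 were. With the trend on probe length removed, 1 Gnas stretch (174156073) and the H19 stretch stayed below the threshold and no stretch was called higher, beside 3.30% and 1.16% of all stretches. With the replicate number as a block 4 Gnas stretches were called lower and 1 higher, beside 6.73% and 3.6% of all stretches, and the H19 stretch did not pass (adjusted p = 0.0504).

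Taken channel by channel, the groups differed more in the input than in the MeDIP signal at most member probes. In the MeDIP channel alone 0 member regions and 0 member probes were called by limma, and 0 member regions had an unadjusted p under 0.05. Of all regions 0.0133% were called lower and 0% higher in that channel, and of all probes 0.000574% and 0%. The MeDIP difference of the 8 regions ran from -0.024 at Gnas region 5 to 0.0038 at Gnas region 4, and every unadjusted 95% interval lay between -0.078 and 0.061. Among the 1 kb stretches it was largest in size at chr2:174156073-174156860, with -0.21 (limma adjusted p = 0.412). There the input difference was of like size, 0.21 (limma adjusted p = 0.0393). In the input channel Gnas region 3 was higher in LC by 0.16 (SE 0.047, limma adjusted p = 0.0392), where its MeDIP difference was 0.00048. This call was lost without LC1, LC3 or any of the CC arrays. This was 1 of the 8 regions, beside 13.1% of all regions called higher and 7.29% called lower in the input channel. Region 2 had input and MeDIP differences of -0.066 and 0.0033, and region 4 had -0.050 and 0.0038, with limma adjusted p in the input channel of 0.277 and 0.441. Of the 240 member probes 14 were called higher and 7 lower in the input channel, beside 6.51% and 2.63% of all probes, and 7 of the 8 probes called lower in the ratio were among those called higher in the input. This overlap largely follows from the ratio, in which the input is the divisor. Its share over all probes of the array is not given here, so it is no result about these probes. At 192 of the 240 members (80.0%) the input difference was larger in size than the MeDIP difference, as it was at 80.7% of all probes.

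**Figure D4:**
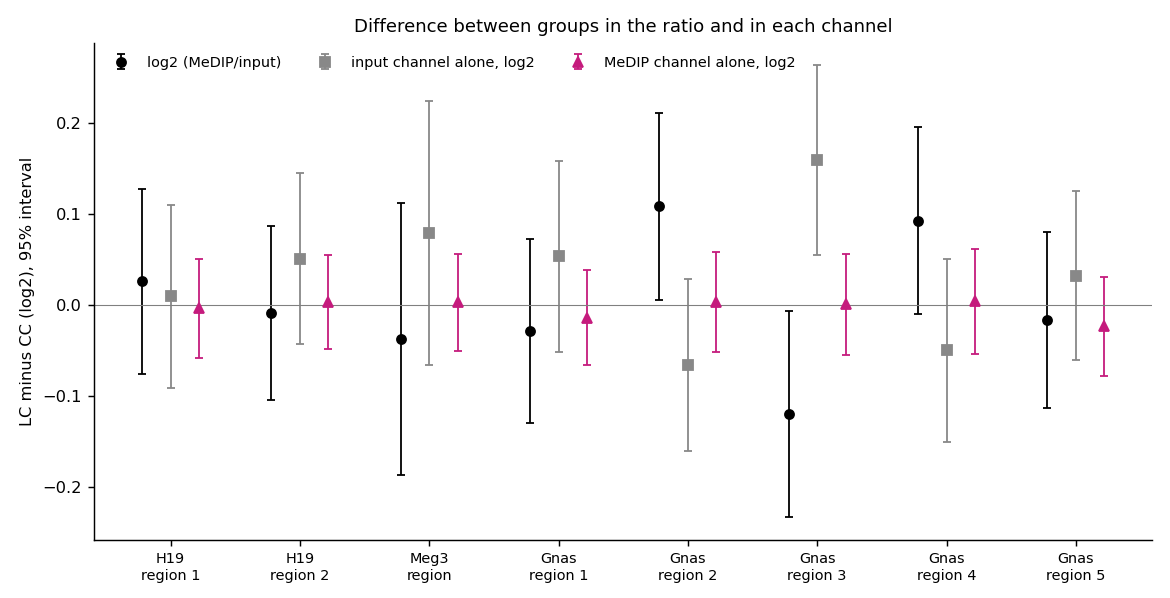
Difference between the LC and CC means on the log2 scale in the ratio (black circles), in the input channel alone (gray squares) and in the MeDIP channel alone (pink triangles) for the 8 regions, with unadjusted 95% intervals from limma. The MeDIP differences stay within 0.024 of 0, and in Gnas regions 2, 3 and 4 the ratio and the input differ in opposite directions.

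The input arrays themselves differed between the groups. The median input brightness over its local background ranged from 105 to 169 in LC and from 239.5 to 333.5 in CC mice, and the input was well above background at 89.1% to 94.4% of all probes in LC and 96.8% to 97.6% in CC. For MeDIP the ranges were 118 to 143.5 and 142 to 218. The value of 218 was that of CC3, scanned at a Cy5 detector voltage of 306 against 279 on every other array. LC arrays always took slide position 1 and CC arrays position 3, and these cannot be told apart from the groups. The part of input brightness in the differences at H19, Meg3 and Gnas was not tested. At Gnas 16 of the 191 probes had an input signal not well above background on at least 1 array, at H19 and Meg3 none had.

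The surroundings of the windows were compared as a description. Within 250 kb on either side there were 17 regions at H19, of which 2 were called lower in LC and 0 higher, 7 at Meg3 with 1 called lower, and 10 at Gnas with 0 called. Over the whole array 8.81% of regions were called lower and 10.2% higher. The median differences of the surrounding regions were -0.077 around H19, 0.073 around Meg3 and 0.0058 around Gnas. The region of each locus with the most probes was also set against all regions outside the windows, by the root mean square difference of the 6 array values. Closest to H19 region 2 was chr10:58865178-58866880 (0.015), closest to the Meg3 region was chr17:33855125-33856679 (0.039), and closest to Gnas region 4 was chrX:136096610-136098282 (0.022). None of these 3 was called (limma adjusted p of 0.913, 0.680 and 0.225). That largely follows from the choice, which matched them to uncalled regions on the LC and CC values themselves. No gene was assigned to these 3 regions because the files name none.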

How the data were processed

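MeDIP and input DNA of 3 LC and 3 CC mice were measured on 6 promoter arrays. The authors deposited Agilent Feature Extraction 11.0.1.1 output with the intensity of each dye, background-subtracted, spatially detrended and scaled by dye, and with a log10 ratio of the dyes that was used only to check direction. They also deposited processed values on a log2 scale, whose medians were 0.015 to 0.033 per array and whose centering and smoothing are not described in the sources used here. Positions are given in mm9 without gene names.

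Log ratios were computed from the processed signals after control features and 362 outlier-marked probes, none of them a member, had been dropped, and centered on the array median. Differences were fitted in R 4.3.3 with the package limma 3.58.1 (lmFit, eBayes, Benjamini-Hochberg over all probes or regions, threshold 0.05), separately for each channel too. Regions were cut at the window edges, although probes go on beyond those of H19 and Gnas. For a check by simulation, a log2 difference of 0.50 between LC and CC was given to 200 of 22588 regions, of which limma found 178 (89.0%) beside 5 false calls. That shift is larger than the difference of any member region, so the check cannot tell whether smaller differences would be found. Its noise was drawn independently for each region and array, without the difference in input brightness between the groups. The 6 arrays limit the precision, and p-values cover the spread between single mice. With 3 mice a group an exact permutation test cannot go below 0.10, so none is given.

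Replicates of the same number shared a scan day, and those of numbers 1 and 2 also a scan time, from which a shared slide was inferred. Their deviations from the group means correlated at -0.16, 0.11 and -0.00084 across regions, so that they were not treated as pairs. Members, lists and tests were chosen with earlier results of these data known. Named are all 8 regions, in each the highest and lowest probe, and probes with separate groups, cut to the 3 largest differences per direction where a locus had more than 6. The called probes, the 1 kb stretches and the H19 probe at 149766197 were named after their values were seen.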

Additional observations from a re-analysis of the deposited data

How the results depend on the processing

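The count of 0 called member regions did not change, except that 1 was lower without LC2 and 3 were higher with normexp. In the fixed 1 kb stretches added later, 7 of 57 were lower and 2 higher. With the replicate block (scan day) 0 regions, 6 probes lower and 0 higher were called, and in the 1 kb stretches 4 lower and 1 higher. The 8 lower and 2 higher member probes became 17 and 45 with normexp, 3 and 0 with loess, 5 and 0 with quantile normalization, 17 and 12 with the authors' processed values, 21 and 13 without probes that were dim in the input, 0 and 0 with the slide block and with the methods' t-test, 1 and 0 with the trend on probe length removed, and 2 and 0 with the replicate block and that trend together. Higher probes were 0 with equal median absolute deviations and 1 with outlier-marked probes kept. Leaving out 1 array gave 0 to 16 lower and 0 to 6 higher probes, with none of either without CC1, CC2 or CC3. For the 1 kb stretches the trend on probe length left 2 lower and 0 higher, and leaving out 1 array gave 0 to 8 lower and 0 to 4 higher, the lowest without a CC array. The 1 region higher in the input channel was 0 with the slide block, the median over probes and the methods' t-test, and 0 to 1 when 1 array was left out. At an unadjusted p under 0.05 the t-test had 25 probes lower and 41 higher, the slide block 33 and 28. Shares over the whole array are not given for the probe and region counts of these other settings. Those counts are therefore no result about the members themselves.

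The sign of a difference turned in the following. With normexp H19 region 2 was 0.077, Meg3 0.11, Gnas region 1 0.057 and Gnas region 5 0.0061. With loess Meg3 was 0.071 and Gnas region 1 0.030. In the authors' values H19 region 2 was 0.043, Meg3 0.041 and Gnas region 1 0.0054. With the trend on probe length removed, with or without the replicate block, Meg3 was 0.016 and Gnas region 1 0.0072. H19 region 1 was -0.016 with quantile normalization, -0.041 with equal median absolute deviations and -0.040 as the median over probes, where H19 region 2 was 0.076. Meg3 was 0.0072 without LC1. At 2 probes whose MeDIP signal stayed near background in both groups the fitted value changed sign as well, at H19 149761104 to -0.074 with equal median absolute deviations and at Gnas 174148837 to -0.042 with normexp and -0.11 in the authors' values. Neither is a measured difference between the groups. The cause was not tested. With probe starts up to 1000 bp apart no member region was called.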
